A study of Rattus norvegicus with 9 samples.

Results

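The genes described here encode the oxidative phosphorylation machinery, and they were taken from the gene table by symbol alone. Symbols that begin with Nduf, Uqcr, Atp5 or Mt-, that run from Cox4 to Cox8, or that read Sdha to Sdhd gave 97 genes of 22888. Of these, 95 reached 0.5 normalized reads in at least 3 of the 9 libraries, 82 from the nuclear genome and all 13 protein genes of the mitochondrial genome. The same minimum left 17770 genes of the whole table for testing. It was not a close limit for the members: the lowest kept gene, Atp5me, averaged 81.2 normalized reads, all 95 reached the minimum in every library, and the genes left out were Cox8c, at 0 throughout, and Cox7b2, seen in astaxanthin 2 alone at 4.87.

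Messenger RNA was sequenced from brain tissue of male Sprague-Dawley rats in 9 libraries. The astaxanthin libraries (1, 2 and 3) came from rats given astaxanthin, a carotenoid antioxidant, by gavage at 45 mg/kg for 7 days before the middle cerebral artery was occluded on one side, which starves its territory of blood. The model libraries (1, 3 and 4) came from rats with the occlusion and no astaxanthin, and the sham libraries (1, 3 and 5) from sham-operated rats. Tissue was taken 1 day after the occlusion. The labels name neither the brain region nor the side, give no age, and do not say that each library is a separate animal, so p-values measure the spread between these samples, which may be technical.

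Oxidative phosphorylation makes most of the ATP that neurons use. Complex I (NADH dehydrogenase) and complex II (succinate dehydrogenase) pass electrons to ubiquinone, complex III passes them to cytochrome c, and complex IV (cytochrome c oxidase) passes them to oxygen, while ATP synthase uses the proton gradient that complexes I, III and IV build. Subunits come from both genomes, except those of complex II, which are all nuclear. Mitochondrial genes are transcribed inside the organelle as long precursors that are cut apart, so their messenger RNAs are set by other enzymes than those of the nuclear genes.

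Promoters of 4 genes with small p-values between model and sham are shown because most nuclear members had fold changes below 0 there, as described further on. Each run holds 250 bases before and 50 after the RefSeq start in GRCr8, 5′ to 3′ along the gene, and capitals mark matches to any of 3 motifs on either strand: GCGCANGCG, a core of sites for NRF1; CCGGAAG, a core of sites for ETS factors such as GABP; and ACGTG, the core bound by hypoxia-inducible factors. NRF1 and GABP are known activators of respiratory chain genes. The windows lie at chr3:97339605-97339904, minus strand (Ndufs3), chr1:210573649-210573948, minus strand (Ndufs8), chr4:53971186-53971485, minus strand (Ndufa5) and chr1:30764303-30764602, plus strand (Sdha).
Ndufs3: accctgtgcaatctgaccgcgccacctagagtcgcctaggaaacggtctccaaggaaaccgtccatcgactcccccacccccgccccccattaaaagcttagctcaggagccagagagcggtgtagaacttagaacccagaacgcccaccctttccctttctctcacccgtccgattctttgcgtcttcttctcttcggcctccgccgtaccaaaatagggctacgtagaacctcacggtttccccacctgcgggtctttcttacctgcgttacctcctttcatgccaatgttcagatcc
Ndufs8: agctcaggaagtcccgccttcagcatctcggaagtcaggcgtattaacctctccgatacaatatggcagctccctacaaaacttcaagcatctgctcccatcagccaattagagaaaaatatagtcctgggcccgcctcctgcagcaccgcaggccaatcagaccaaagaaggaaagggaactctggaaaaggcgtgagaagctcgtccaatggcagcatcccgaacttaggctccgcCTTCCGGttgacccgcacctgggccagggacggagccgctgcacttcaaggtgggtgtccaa
Ndufa5: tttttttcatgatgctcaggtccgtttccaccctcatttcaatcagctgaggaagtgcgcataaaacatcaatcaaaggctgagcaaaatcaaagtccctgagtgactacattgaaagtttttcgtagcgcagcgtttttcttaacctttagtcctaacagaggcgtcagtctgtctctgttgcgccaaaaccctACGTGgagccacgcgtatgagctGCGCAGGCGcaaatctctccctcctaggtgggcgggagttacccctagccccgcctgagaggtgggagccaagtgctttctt
Sdha: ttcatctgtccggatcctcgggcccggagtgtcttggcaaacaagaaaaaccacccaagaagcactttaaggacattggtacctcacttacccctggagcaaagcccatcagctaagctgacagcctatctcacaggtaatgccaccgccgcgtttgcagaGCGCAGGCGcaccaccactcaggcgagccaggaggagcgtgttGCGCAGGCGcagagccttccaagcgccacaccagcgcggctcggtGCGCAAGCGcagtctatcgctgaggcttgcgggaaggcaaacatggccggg

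The Ndufs3 window held none of the 3 motifs, Ndufs8 held CCGGAAG on the opposite strand, Ndufa5 held GCGCANGCG and ACGTG, and Sdha held GCGCANGCG 3 times. Across the 72 nuclear members with a single RefSeq window, GCGCANGCG was present in 18 (25.0%), against 11.3% of the 11547 windows of tested genes. CCGGAAG was present in 20 (27.8%), against 14.9%. ACGTG was present in 18 (25.0%), against 24.3%. A match describes letters in a window and shows no binding.

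Some libraries stood apart from others of their own group, which touches the results that follow. All 12 neuronal and 7 astrocyte markers were detected in each of the 9 libraries. Recovered totals ran from 52268061 to 76311125 reads. In model 3, 12 neuronal markers stood on average at -1.72 log2 units relative to sham, where model 1 and 4 had -0.41 and -0.32, while 7 neutrophil markers averaged 6.30, against 3.30 and 2.93. In astaxanthin 1, 8 cerebellar neuron markers averaged 6.98, against 0.96 or less elsewhere, and 7 choroid plexus and ependymal markers averaged 4.93, with 3.80 in sham 5. Neuronal markers of astaxanthin 1, 2 and 3 averaged -0.65, -0.41 and -0.31. In bulk tissue, fewer cells of a type and less RNA per cell cannot be told apart, and the part of cell makeup in the results was not tested.

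Mitochondrial transcripts far outweighed nuclear ones. The 13 mitochondrial genes took 7.15%, 6.46% and 7.25% of recovered reads in astaxanthin 1, 2 and 3, 6.66%, 10.4% and 7.98% in model 1, 3 and 4, and 7.87%, 9.61% and 8.24% in sham 1, 3 and 5. The 82 nuclear genes took 0.927%, 0.794% and 0.902%, then 0.828%, 0.890% and 0.795%, then 0.954%, 0.977% and 1.012% in the same order. All 6 libraries with an occlusion therefore lay below all 3 sham libraries in the nuclear share, while the mitochondrial shares of model and sham overlapped. Per kilobase of exon, mitochondrial levels averaged 81760 (Mt-nd6) to 1075420 (Mt-co1) normalized reads over the 9 libraries, and those of kept nuclear genes 57.6 (Cox7a1) to 37528 (Atp5f1b).

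The reads of mitochondrial genes over those of nuclear genes gave a ratio of 7.71, 8.15 and 8.04 in the astaxanthin libraries, 8.05, 11.7 and 10.04 in the model libraries, and 8.25, 9.84 and 8.13 in the sham libraries. Means were 7.97 ± 0.227 in astaxanthin, 9.93 ± 1.83 in model and 8.74 ± 0.958 in sham (SD, n = 3 each). The ranges overlapped between every pair of groups. Between astaxanthin and model the overlap was narrow, with astaxanthin 2 at 8.15 above model 1 at 8.05. It depended on Mt-atp6, which was high in model 1, as described further on. Without Mt-atp6 and the nuclear member whose values are not reported here, model 1 stood at 7.31. Astaxanthin 1, 2 and 3 then stood above it at 7.48, 7.89 and 7.96, and model 3 and 4 at 11.6 and 9.98.

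**Figure D1:**
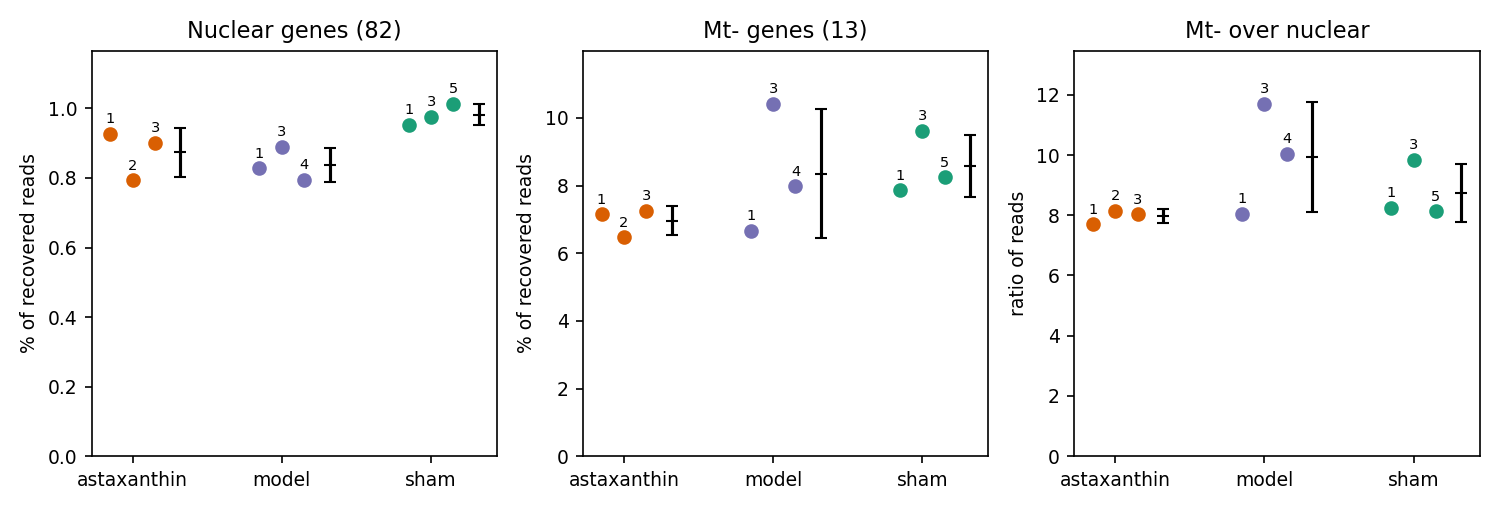
Share of recovered reads (%) from 82 nuclear and 13 mitochondrial genes of oxidative phosphorylation, and the ratio of mitochondrial to nuclear reads, per library (points, numbered) with mean and SD (bars, n = 3). The nuclear shares of the 6 libraries with an occlusion lie between 0.794% and 0.927%, under the lowest sham library at 0.954%, while model 3 has the highest mitochondrial share at 10.4%.

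The comparison of model with sham asks what the occlusion alone changed. Most nuclear members had fold changes below 0, with the lowest median in complex I, while the mitochondrial genes overlapped between the groups. A single member passed the threshold of 0.05 on the adjusted p, Ndufs3, which was lower in model: 1 of 95 members, against 4.77% of all tested genes (1.32% lower and 3.45% higher). At an unadjusted p under 0.05, 19 members were lower, against 10.1% of all genes, and 2 higher, against 13.7%. Fold changes were below 0 for 75 of 82 nuclear members, with a median log2 fold change of -0.29, and for 10 of 13 mitochondrial genes, with a median of -0.16; over all tested genes 49.1% were below 0 and the median was 0.02. All 3 model libraries lay below all 3 sham libraries for 33 of 82 nuclear members (40.2%), against 16.6% of all tested genes, and above them for 2, against 19.0%. No mitochondrial gene separated the groups in this way.

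Those counts moved with single libraries. Without model 3, 64 of 82 nuclear members lay below every sham library, against 24.1% of all genes. The median of the mitochondrial genes turned to 0.02 without model 1, and was -0.30 without model 3 and -0.08 without sham 3. Calls numbered 4 without astaxanthin 1 (Ndufa5, Ndufb4, Ndufs3 and Ndufs8), 2 without model 4 (Ndufs3 and Sdha), and 0 without astaxanthin 2, model 1 or any single sham library. The shares of all tested genes called in these fits are not given here, so their counts cannot be set against a background. DESeq2 on recovered reads called 16 members, 15 lower and Cox4i2 higher, against 17.4% of the genes it tested (6.28% lower, 11.1% higher). edgeR called Ndufs3 alone, against 4.24% of all genes (0.872% lower, 3.37% higher). Without both of astaxanthin 1 and model 3, a setting picked with earlier results of these data known, limma called 21 members, all lower, against 14.8% of all genes (6.47% lower, 8.34% higher).

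**Figure D2:**
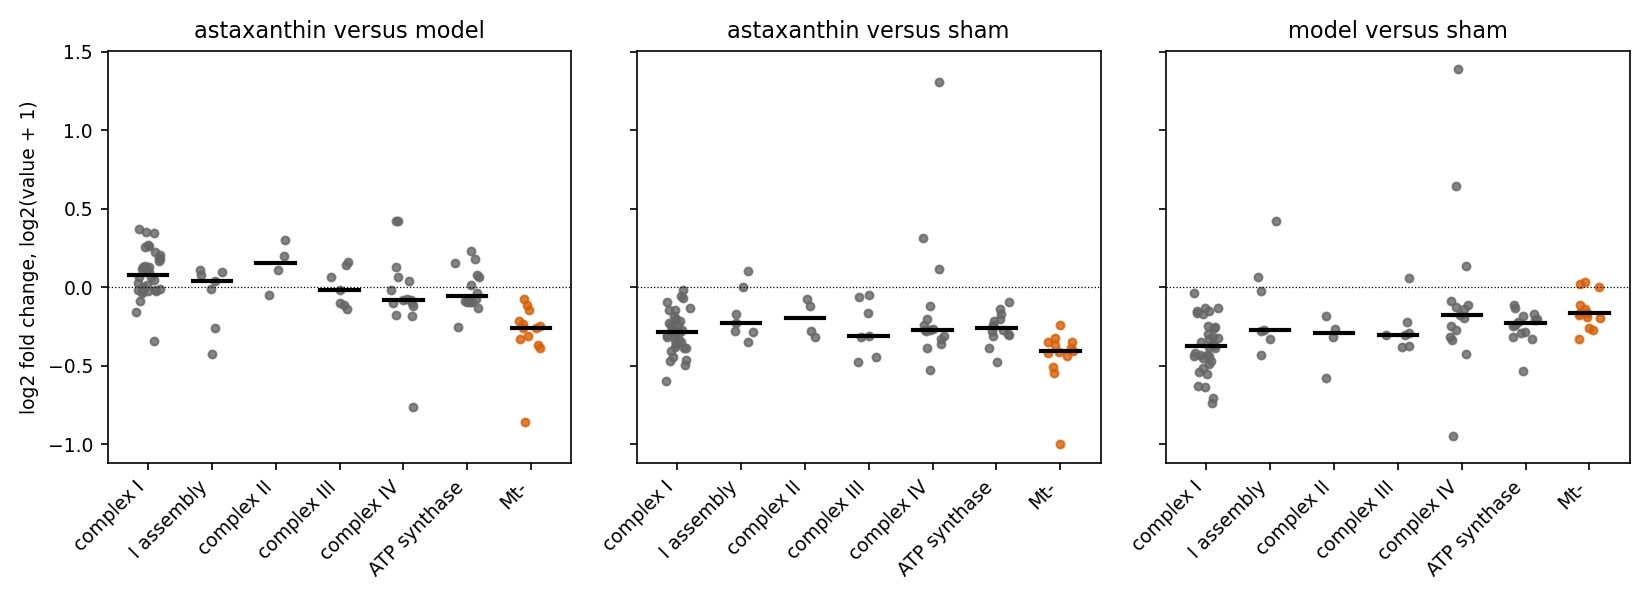
Log2 fold changes of 81 nuclear and 13 mitochondrial members (points) by complex, with medians (bars), on the log2(value + 1) scale for astaxanthin versus model, astaxanthin versus sham and model versus sham. Complex I has a median of -0.37 in model versus sham, and the mitochondrial genes (orange) have their lowest median, -0.40, in astaxanthin versus sham.

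Complex I had the lowest median of the classes between model and sham. Of its 35 nuclear genes, 34 had a fold change below 0, against 49.1% of all tested genes, and the median was -0.37. All model libraries lay below all sham libraries for 20 of them, against 16.6% of all tested genes. The core subunits reported here, which carry the flavin and the iron-sulfur clusters or sit beside them, had a median of -0.51 over 6 genes, and all 6 separated the groups, against the same 16.6%. Accessory subunits build the shell of the complex. Leaving out the pseudogene row Ndufv3-ps1, which is among the 35, the 27 accessory genes all had fold changes below 0 with a median of -0.36, and 14 separated, against the same 16.6%.

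Ndufs3 (build rn7, chromosome 3, 76876646 to 76883824) encodes a core subunit of the arm that reaches into the matrix. It had 4589, 4302 and 4393 normalized reads in astaxanthin 1, 2 and 3, 3385, 3344 and 3759 in model 1, 3 and 4, and 5352, 6381 and 5383 in sham 1, 3 and 5. The model libraries were the lowest and the sham libraries the highest, with the astaxanthin libraries between them and no overlap among the groups. It averaged 3496 ± 229 in model and 5705 ± 585 in sham (SD, n = 3), a log2 fold change of -0.70 ± 0.14 (SE) with a limma adjusted p of 0.0298. That call was lost without astaxanthin 2, model 1, sham 1, sham 3 or sham 5, where the limma adjusted p was 0.0532, 0.0927, 0.105, 0.120 and 0.0860. Ndufs3 overlaps Kbtbd4 at one end, and the labels do not state whether counting used the strand; Kbtbd4 stood at 1127 to 1947 normalized reads.

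Other complex I genes with small p did not pass. Ndufs8 (chromosome 1, 201140585 to 201144511), a core subunit with iron-sulfur clusters, had 3168, 2555 and 3054 normalized reads in astaxanthin 1, 2 and 3, 2561, 2534 and 2608 in model 1, 3 and 4, and 3490.2, 4179 and 4292 in sham 1, 3 and 5. Its 3 model libraries sat within a narrow range under every sham library, with a log2 fold change of -0.63 ± 0.15 (SE) and a limma adjusted p of 0.053. In model 3 and 4 the transcript Ndufs8-202 took 42.5% and 27.8% of the gene's reads, against 4.25% or less elsewhere. Ndufa5 (chromosome 4, 52995546 to 53005598), an accessory subunit, had 6423, 6455 and 8204 normalized reads in astaxanthin 1, 2 and 3, 5186, 6179.6 and 6187 in model 1, 3 and 4, and 8444, 8926 and 9893 in sham 1, 3 and 5. The groups separated in the same order as for Ndufs3, and the model to sham fold change was -0.64 ± 0.16 (SE) with a limma adjusted p of 0.0608.

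Complex I assembly factors were mixed, with a median of -0.27 over 7. Ndufaf4, which helps build the complex, had 831, 848 and 1040.4 normalized reads in astaxanthin 1, 2 and 3, 1299.7, 1179 and 1153 in model 1, 3 and 4, and 1036, 865 and 816 in sham 1, 3 and 5, and model was above both other groups. Its log2 fold change was 0.42 ± 0.18 (SE) in model versus sham (limma adjusted p = 0.205) and -0.42 ± 0.18 (SE) in astaxanthin versus model (limma adjusted p = 0.559). Neither passed. Ndufaf1, Ndufaf3, Ndufaf5 and Ndufaf6 had model versus sham values of -0.02, -0.28, -0.27 and -0.43.

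All 4 genes of complex II had fold changes below 0 in model, with a median of -0.29. Sdha (chromosome 1, 28940164 to 28961535), the flavoprotein that oxidizes succinate, had 22477, 20692 and 20765 normalized reads in astaxanthin 1, 2 and 3, 15928, 15483 and 20944 in model 1, 3 and 4, and 25028, 26590.1 and 25753 in sham 1, 3 and 5. All model libraries were below sham, and the log2 fold change was -0.58 ± 0.17 (SE) with a limma adjusted p of 0.0869. Sdhb, the iron-sulfur subunit, and the membrane anchors Sdhc and Sdhd had log2 fold changes of -0.19, -0.27 and -0.32.

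Complex III had 6 of 7 genes below 0 and a median of -0.30. The core proteins Uqcrc1 and Uqcrc2 stood at -0.30 ± 0.16 (SE) and -0.38 ± 0.15 (SE) on the log2 scale, and neither passed (limma adjusted p = 0.286 and 0.161). Uqcrc2 had 13196, 13611 and 13554 normalized reads in astaxanthin 1, 2 and 3, 11557, 12880 and 14280.4 in model 1, 3 and 4, and 15794, 17361 and 17098 in sham 1, 3 and 5, with every sham library above the other 6. The iron-sulfur protein Uqcrfs1 and the small subunits Uqcrb and Uqcrq had values of -0.22, -0.37 and -0.30. The Uqcrb row joins loci on chromosomes 1 and 7, and copies cannot be told apart in it.

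Complex IV ranged from -0.95 to 1.39 over 15 genes, with a median of -0.18. Cox4i1, the common form of subunit 4, had 22372, 20023 and 21531 normalized reads in astaxanthin 1, 2 and 3, 20049.9, 20183 and 18198 in model 1, 3 and 4, and 22251, 26559 and 24874 in sham 1, 3 and 5, and all model libraries were below sham (log2 fold change -0.33 ± 0.15 SE, limma adjusted p = 0.227). Cox4i2, a form known for its rise in low oxygen in other tissues, had 134, 168 and 133 normalized reads in astaxanthin 1, 2 and 3, 94.97, 306 and 122 in model 1, 3 and 4, and 83.8, 69.2 and 33.1 in sham 1, 3 and 5. All 6 libraries with an occlusion were above all sham libraries, model 3 most of all. Its log2 fold change was 1.39 ± 0.53 (SE) in model (limma adjusted p = 0.162) and 1.31 ± 0.53 (SE) in astaxanthin against sham (limma adjusted p = 0.381). Per kilobase it remained a small share of Cox4i1, 1.05% to 1.26% in astaxanthin, 0.819% to 2.36% in model and 0.231% to 0.651% in sham. The endothelial and smooth muscle markers were also highest in model 3, at 3.10 and 2.62 log2 units above the sham mean; their part in this was not tested.

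Among the other isoforms of complex IV, single libraries stood out. Ndufa4 is a subunit of complex IV in spite of its name and had a log2 fold change of -0.43 ± 0.21 (SE) in model versus sham, while its relative Ndufa4l2, known as a hypoxia-induced gene, had 192, 95.4 and 114 normalized reads in astaxanthin 1, 2 and 3, 59.6, 226 and 63.4 in model 1, 3 and 4, and 174, 205 and 176 in sham 1, 3 and 5. Model 1 and 4 were the lowest and model 3 the highest. Cox6a2, the heart and muscle form of subunit 6a, ranged from 33.6 in astaxanthin 1 to 476 in astaxanthin 2, and its ubiquitous partner Cox6a1 from 14983 in astaxanthin 1 to 25130 in model 3. Cox7a2l, which acts in joining complexes III and IV, had 7632, 3441 and 3429 normalized reads in astaxanthin 1, 2 and 3, 3172, 9433 and 3128 in model 1, 3 and 4, and 4149.5, 4126 and 4109 in sham 1, 3 and 5. Astaxanthin 1 and model 3 were highest, and in these 2 libraries its longer transcripts Cox7a2l-202 and Cox7a2l-203 together took most reads, at 32.03% plus 51.2% and 16.5% plus 65.3%. Per kilobase of exon, astaxanthin 1 stood at 8054, within the range of sham 1, 3 and 5 at 8044, 8217 and 8219. Model 3 stood at 9949 on that scale, still the highest. Cox7a1, the heart form, stayed between 60.5 and 174.

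ATP synthase had all 14 genes below 0 in model, with a median of -0.23. Atp5f1a (chromosome 18, 71292374 to 71300794), the alpha subunit of the catalytic head, had 46664, 35865 and 42977 normalized reads in astaxanthin 1, 2 and 3, 36094, 32543 and 37988 in model 1, 3 and 4, and 49452, 53263 and 51256 in sham 1, 3 and 5. The sham libraries were the 3 highest but the difference did not pass (log2 fold change -0.53 ± 0.17 SE, limma adjusted p = 0.111). The beta subunit Atp5f1b and the stalk subunit Atp5po had values of -0.31 ± 0.17 (SE) and -0.33 ± 0.18 (SE). Atp5if1, which inhibits the enzyme when it runs in reverse, had 4871, 5426 and 6279 normalized reads in astaxanthin 1, 2 and 3, 6328, 8364 and 5319 in model 1, 3 and 4, and 7604, 8251 and 7076 in sham 1, 3 and 5. Model 3 was the highest of all, so model overlapped sham, while every astaxanthin library was below sham.

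Model 3 was the highest of the 9 libraries for 17 of 82 nuclear members (20.7%) and the lowest for 14 (17.1%), which is near the 23.8% and 20.1% of all tested genes. The main transcript of those 17 had a median exon length of 699 bases and that of those 14 one of 1847. Across 81 nuclear members, length and the difference of model 3 from the sham mean had a Spearman correlation of -0.40, and across 9041 genes of high level -0.14; genes share the library, so this is a description. Members under 1 kilobase had a median of 0.03 (42 genes) and longer members -0.23 (39 genes) in model 3, against -0.39 and -0.29 in model 1 and -0.43 and -0.35 in model 4. Over the 9041 genes, those under 1 kilobase (377) had a median of 0.26 and longer ones (8664) -0.15 in model 3, a wider gap than that of the members.

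**Figure D3:**
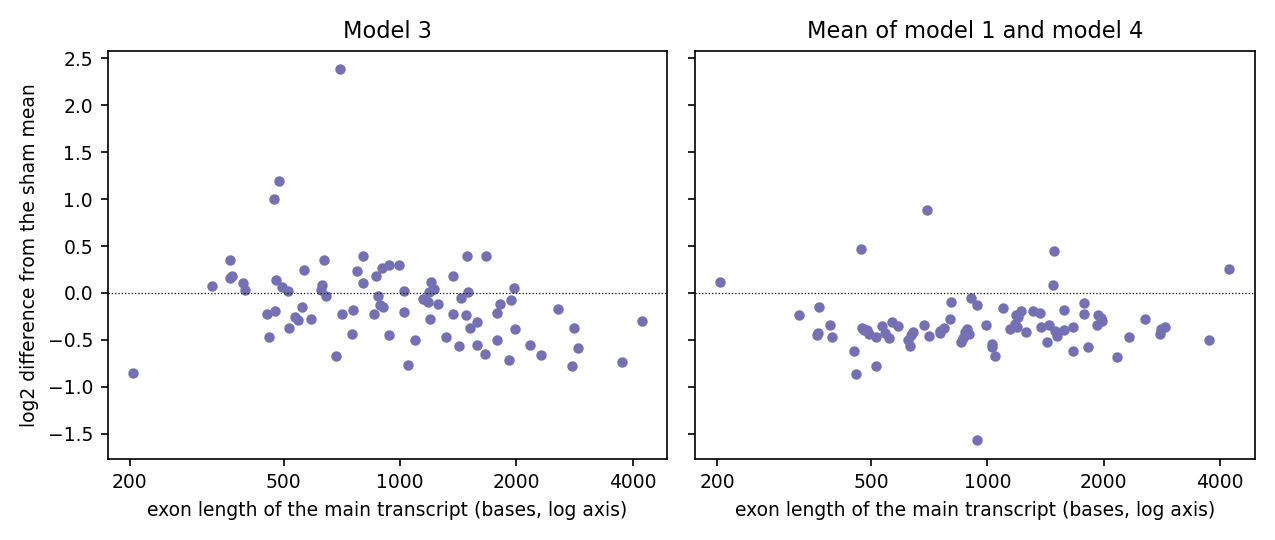
Log2 difference from the sham mean against exon length of the main transcript (log axis) for nuclear members in model 3 and in the mean of model 1 and 4. In model 3 short members lie around 0.03 and long members around -0.23.

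Mitochondrial genes were compared gene by gene, but they share precursors and libraries, so counts among them are not counts of 13 separate observations. Mt-co1, the catalytic subunit of complex IV, had 1729140, 1375080 and 1510440 normalized reads in astaxanthin 1, 2 and 3, 1317000, 1903890 and 1679930 in model 1, 3 and 4, and 1678920, 1923040 and 1826630 in sham 1, 3 and 5. Mt-nd6, the only protein gene on the other strand, had 36502, 32350.5 and 35644 normalized reads in astaxanthin 1, 2 and 3, 32292, 45269 and 45074 in model 1, 3 and 4, and 48005, 61495 and 44534 in sham 1, 3 and 5. Model 1 was the lowest library for 10 of 13 genes, against 11.4% of all tested genes. Sham 3 was the highest for 9, against 11.6%, and model 3 for the other 4, against 23.8%. Without Mt-atp6 the mitochondrial genes averaged -0.56 log2 units from the sham mean in model 1, 0.19 in model 3 and -0.09 in model 4. In model 3 the genes Mt-co2, Mt-atp8 and Mt-co3 stood 0.67, 0.62 and 0.74 above the sham mean, while Mt-nd5 and Mt-nd6 stood at -0.24 and -0.17.

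Mt-atp6, a subunit of the proton channel of ATP synthase, split inside groups. It had 132445, 131086 and 152370 normalized reads in astaxanthin 1, 2 and 3, 455717, 212234 and 163687 in model 1, 3 and 4, and 165312, 739802 and 172901 in sham 1, 3 and 5. Model 1 and sham 3 were high and no other library passed 212234. Per kilobase its ratio to the neighbouring Mt-co3 was 1.21 in model 1 and 1.23 in sham 3, against 0.224 to 0.316 elsewhere, while that of Mt-atp8, which overlaps it, was 0.678 to 0.800 in all 9. The log2 fold changes of Mt-atp6 had standard errors of 0.60.

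**Figure D4:**
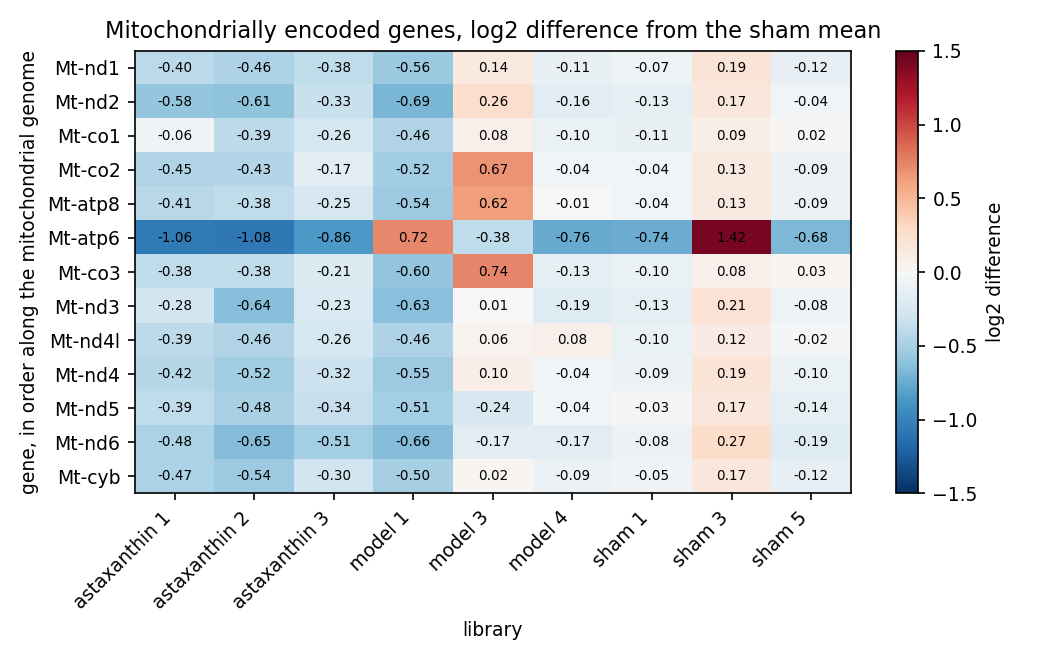
Log2 difference from the sham mean for the 13 mitochondrial protein genes (rows, in order along the genome) in each library (columns). The 3 astaxanthin libraries lie between -1.08 and -0.06, and sham 1 is also below 0 for all 13 genes, between -0.74 and -0.03. Model 3 stands at 0.67, 0.62 and 0.74 for Mt-co2, Mt-atp8 and Mt-co3, and Mt-atp6 at 0.72 in model 1 and 1.42 in sham 3.

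The comparison of astaxanthin with model asks what the treatment changed in injured brain, and no member passed. The count was 0 of 95 in limma, against 0.0% of all tested genes, 0 in edgeR and 0 in DESeq2, whose background was 1.25% of the genes it tested (0.894% lower, 0.359% higher). At an unadjusted p under 0.05 stood 3 members, against 3.86% of all genes higher and 5.03% lower: Ndufs3 at 0.34 ± 0.14 (SE) and the fellow core subunit Ndufs7 at 0.37 ± 0.15 (SE) above 0, and Ndufaf4 at -0.42 ± 0.18 (SE), with limma adjusted p of 0.548, 0.548 and 0.559. Ndufs7, which carries the last iron-sulfur cluster before ubiquinone, had 6858, 5565 and 5784 normalized reads in astaxanthin 1, 2 and 3, 5065, 4229 and 4775 in model 1, 3 and 4, and 6423, 6079 and 6519 in sham 1, 3 and 5. All astaxanthin libraries exceeded all model libraries, and astaxanthin 1 was the highest of the 9.

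Nuclear members had a median of 0.02 in astaxanthin versus model, with 38 of 82 below 0, against 50.9% of all tested genes. The groups did not overlap for 2 lower and 3 higher nuclear members, against 7.24% and 5.72% of all genes. The same 6 core subunits of complex I were all above 0, with a median of 0.24. The nuclear median turned below 0 without astaxanthin 1 (-0.05) or model 4 (-0.01), was 0.10 and 0.11 without astaxanthin 2 and model 3, and 0.04 without astaxanthin 3, with 0.0031 without model 1. All 13 mitochondrial genes were below 0, with a median of -0.26, against -0.01 for all tested genes. That median was -0.08 without model 3 and -0.43 without model 1. The groups overlapped for all of them except Mt-atp6.

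Between astaxanthin and sham, fold changes below 0 prevailed in both sets, and this comparison shares its sham libraries with that of model. No member passed in limma (49 genes did, 0.276%, with 0.0394% lower and 0.236% higher) or in edgeR, where the background was 0.0%. DESeq2 called Ndufb3 and Ndufs5 lower, against 4.81% of the genes it tested (1.64% lower, 3.17% higher). The fit without both of astaxanthin 1 and model 3 called 3 members lower, against 3.89% of all genes (1.08% lower, 2.81% higher). At an unadjusted p under 0.05, 12 members were lower, against 5.35% of all genes, and Cox4i2 was higher, against 6.99%. Nuclear members had 77 of 82 fold changes below 0 and a median of -0.28, against 46.7% of all genes below 0, and 34 (41.5%) lay below every sham library, against 11.4% of all tested genes. Cox4i2 alone lay above, against 13.0%. The count below sham was 61 without astaxanthin 1, against 19.4%, and 22 with values scaled to all recovered reads, against 8.26%.

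All 13 mitochondrial genes had fold changes below 0 in astaxanthin versus sham, against 46.7% of all tested genes, with a median of -0.40. As these genes share precursors and libraries, they are not 13 separate observations, and the counts describe 3 libraries against 3. Of the 13, 12 lay below every sham library, against 11.4% of all tested genes. The exception was Mt-co1, where astaxanthin 1 reached 1729140 normalized reads and sham 1 had 1678920. The count was 12 under both other scalings tried. All-gene shares were 9.11% scaled to reads outside the mitochondrial genes and 8.26% scaled to all recovered reads. Without any single library the count was 12 or 13, against 14.2% to 19.4% of all genes. Mt-nd6 had the smallest p, with a log2 fold change of -0.55 ± 0.21 (SE) and a limma adjusted p of 0.35. Mt-cyb, the mitochondrial subunit of complex III, had 413075, 394316 and 467107 normalized reads in astaxanthin 1, 2 and 3, 405982, 583761 and 538351 in model 1, 3 and 4, and 554665, 644980 and 528019 in sham 1, 3 and 5, a log2 fold change of -0.44 ± 0.23 (SE) and a limma adjusted p of 0.463.

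Among nuclear members, Ndufs5, an accessory subunit of complex I, had 4031, 3625 and 3909.6 normalized reads in astaxanthin 1, 2 and 3, 3933, 4094 and 3726 in model 1, 3 and 4, and 5324, 5664 and 4941 in sham 1, 3 and 5. Its 6 libraries with an occlusion lay close together under sham, at -0.46 ± 0.13 (SE) log2 units for astaxanthin, where the limma adjusted p was 0.236, and -0.44 ± 0.13 (SE) for model, where it was 0.0944. Its row joins loci on chromosomes 2 and 5. Ndufb3, an accessory subunit of the membrane arm, had values of -0.40 ± 0.14 (SE) and -0.38 ± 0.14 (SE) in the same order. Uqcrq and Atp5if1 had astaxanthin versus sham values of -0.44 ± 0.17 (SE) and -0.47 ± 0.20 (SE), with limma adjusted p of 0.359 and 0.382.

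Genes around the pathway were counted from lists outside the members, and those named from them were chosen after their values were seen. Of 41 measured assembly factors and electron carriers, 2 were called lower in model than in sham, against 1.32% of all genes, and the median was -0.25. They were Atpaf1, which assembles the head of ATP synthase, with 2049, 2722 and 2940.4 normalized reads in astaxanthin 1, 2 and 3, 2207, 1922 and 2664 in model 1, 3 and 4, and 4541, 4320.1 and 3560.2 in sham 1, 3 and 5 (log2 fold change -0.88 ± 0.20 SE, limma adjusted p = 0.0461), and Lyrm7, which helps insert the iron-sulfur protein of complex III, with 861, 779 and 687 normalized reads in astaxanthin 1, 2 and 3, 626, 597 and 695 in model 1, 3 and 4, and 1392, 1392 and 945 in sham 1, 3 and 5 (log2 fold change -0.94 ± 0.22 SE, limma adjusted p = 0.0468). In the 9 fits without a single library Atpaf1 kept its call in 2 and Lyrm7 in 1. Of 25 genes of the citric acid cycle and pyruvate dehydrogenase, none was called in model versus sham by limma, 8 had an unadjusted p under 0.05 (7 lower, against 10.1% of all tested genes, and 1 higher, against 13.7%), and the median was -0.30.

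Of 31 measured regulators of mitochondrial genes, none was called in model versus sham by limma, and 6 had an unadjusted p under 0.05. Of these 4 were higher and 2 lower, near or under the 13.7% and 10.1% of all tested genes, and the median was 0.01. Nrf1 and Gabpa, whose motifs are shown above, stood at 0.68 ± 0.23 and 0.60 ± 0.20 log2 units (SE), where limma gave an adjusted p of 0.118 and 0.120, with all model libraries above all sham libraries. Esrrg, a nuclear receptor that activates oxidative genes, had 2179, 1493 and 794 normalized reads in astaxanthin 1, 2 and 3, 396, 262 and 809.7 in model 1, 3 and 4, and 1529, 1449 and 1091 in sham 1, 3 and 5, with every model library below the other 6 except that astaxanthin 3 was under model 4. Its log2 fold change was -1.61 ± 0.47 (SE, limma adjusted p = 0.0873) in model versus sham and 1.64 ± 0.47 (SE, limma adjusted p = 0.548) in astaxanthin versus model. Its relative Esrra stood at -0.65 ± 0.28 (SE, limma adjusted p = 0.207) in model and -1.07 ± 0.28 (SE, limma adjusted p = 0.204) in astaxanthin against sham. Tfam, which packages and transcribes mitochondrial DNA, had 0.17 ± 0.18 and the coactivator Ppargc1a 0.15 ± 0.31 in model versus sham (SE), neither of which passed.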

How the data were processed

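The deposited gene and transcript tables held signal values that the authors had normalized per library; the submitters' processing notes name build rn7 and, as tools, STAR, StringTie, DESeq2 and FastQC, and versions, strand and the normalization factor are not given in the sources used here. Exon lengths came from the deposited transcript table. All values were whole multiples of a single value per library (tolerance 0.01, 100% of entries), so reads were recovered by division. Differences of means on the log2(value + 1) scale, given as fold changes, were tested two-sided with limma 3.58.1 (R 4.3.3, trend and robust) over 17770 genes with at least 0.5 in 3 libraries, all 9 libraries in 1 fit, Benjamini-Hochberg adjustment, threshold 0.05. edgeR 4.0.16 and DESeq2 1.42.0 on recovered reads, other filters, pseudocounts, scalings and left-out libraries were alternatives. The fit was tested on simulated data. Members and lists were chosen with earlier results of these data known. Named genes were all mitochondrial members, those past the threshold, the 3 smallest p per complex and comparison, and fixed isoform pairs; Kbtbd4, Ndufb4 and the genes named from other lists were named after their values were seen. Promoters are from RefSeq GRCr8, 72 of 82 kept nuclear members having a single entry. Of the nuclear members, 43 overlap another gene row. The values of 1 nuclear member are not reported here.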

Additional observations from a re-analysis of the deposited data

How the results depend on the processing

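Of recomputed values that answer a comparison, 214 stayed within their limits and 23 moved. For medians the limit was the SD between libraries, 0.111 log2 units for nuclear and 0.239 for mitochondrial genes. Many of the 214 could not move, so the tally does not measure robustness. Leaving out a library of the group not compared leaves a median as it was. The nuclear median of model versus sham was -0.29 without astaxanthin 1, 2 or 3, as in the main fit. In model versus sham 1 member was called, against 4.77% of all tested genes. DESeq2 gave 16, against 17.4% of the genes it tested. The fit without both of astaxanthin 1 and model 3 gave 21, against 14.8% of all genes. A minimum of 10 in 3 libraries gave 2, the replicate block 0 and leaving out 1 library 0 to 4. Shares over all genes are not given here for these last fits. In astaxanthin versus sham 0 members were called, against 0.276% of all tested genes. There DESeq2 gave 2, against 4.81% of the genes it tested, and the fit without both gave 3, against 3.89% of all genes. With the replicate block the astaxanthin versus sham median of nuclear members was -0.15 and the Ndufs3 call in model versus sham was lost (limma adjusted p = 0.290); libraries share only a number, with correlations of deviations between same-numbered libraries of -0.12 to 0.07. Without 1 library, 34 to 64 nuclear members lay below every sham library in model, against 19.7% to 24.1% of all genes. In astaxanthin 34 to 61 did, against 14.2% to 19.4%. Without both, the counts were 64 in model and 61 in astaxanthin, against 24.1% and 19.4%. Scaled to all recovered reads they were 25 in model and 22 in astaxanthin, against 14.1% and 8.26%. The mitochondrial count in model was 0 to 3 without 1 library, against 19.7% to 24.1% of all genes, and 3 without both, against 24.1%. In astaxanthin versus model 4 genes that did not pass changed sign: without both, Atp5if1 to 0.0088, Cox6a1 to 0.098 and Uqcrq to 0.011; leaving out 1 library, Cox6a1 ran from -0.33 to 0.00011, Uqcrq from -0.26 to 0.029 and Sdhb from -0.0068 to 0.25. The causes were not tested. The lowest kept value of any member was 33.1 normalized reads, and 3 libraries per group limit what the tests can call.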
